A study of Mus musculus with 16 samples.

Results

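Livers of conventional mice given the caecal content of obese mice fed a high-fat diet (HFD) were compared with livers of mice given the vehicle, across all genes on the array and beyond the lipogenic network and gluconeogenesis. The samples were chosen by label: 5 mice transplanted with obese microbiota, called Conv + OM(HFD), and 6 control mice, called Conv + PBS, which together are 11 of the 16 mice of the series. The other mice received lean microbiota (Conv + LM, n = 5), share the same controls and are given only beside single values and list medians. Both groups were male C57BL/6 mice with their own gut bacteria, never given antibiotics, kept on normal chow (NC) from 6 weeks of age over 4 weeks and 10 weeks old at sampling. The control samples are labelled as not transplanted, while the protocol text gives them reduced PBS, the transfer vehicle. Donor caecal content was pooled into an inoculum per group, the mice were fasted before sacrifice, and cages are not mapped to mice in the labels, so that cage and group cannot be told apart. Each liver RNA was hybridised to its own 1-colour Agilent array, and the value of a gene is the log2 brightness of its brightest probe relative to the 75th percentile of that array, so that 0 is the brightness of the 75th percentile and 1 unit is a doubling.

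The liver receives the portal blood that drains the gut, and so meets bacterial products, bile acids and absorbed nutrients before other organs do. It makes cholesterol under the transcription factor SREBP-2, which is processed and becomes active when sterols in the cell are low. The organ stores glucose as glycogen, and it holds the main store of vitamin A as retinyl esters in stellate cells, while hepatocytes oxidise surplus retinoic acid. Hepatocytes also secrete the acute phase and complement proteins of the blood.

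The promoters of the 3 genes below are shown because Lrat and Cyp26a1, the enzymes that store and degrade retinoids, and Insig1, a sensor of the sterol pathway, carried the results described next. Each is the 250 bases before the RefSeq start site (GRCm38.p6), written 5′ to 3′ on the strand of the gene, and capitals mark a motif. A retinoic acid element, searched as a pair of AGNTCA sites 5 bases apart and found on the opposite strand, began 32 bases before the start of Cyp26a1, and 0.198% of 32851 mouse promoters held it in the same window. An E-box, CACGTG, stood 101 bases before the start of Insig1 and was in 6.02% of all promoters. Neither these nor the other searched motifs were found in the Lrat window.
Cyp26a1, chr19:37697558-37697807, plus strand: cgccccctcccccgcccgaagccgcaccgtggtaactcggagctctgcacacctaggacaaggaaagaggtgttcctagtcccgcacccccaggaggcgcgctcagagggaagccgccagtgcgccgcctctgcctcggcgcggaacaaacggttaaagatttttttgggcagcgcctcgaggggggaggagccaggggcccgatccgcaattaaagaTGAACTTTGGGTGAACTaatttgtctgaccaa
Insig1, chr5:28071162-28071411, plus strand: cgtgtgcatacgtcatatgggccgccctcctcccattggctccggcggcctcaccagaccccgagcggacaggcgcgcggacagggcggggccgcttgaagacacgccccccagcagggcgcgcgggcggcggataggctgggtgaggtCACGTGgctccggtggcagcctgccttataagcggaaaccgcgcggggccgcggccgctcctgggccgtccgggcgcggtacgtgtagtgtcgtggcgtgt
Lrat, chr3:82903975-82904224, minus strand: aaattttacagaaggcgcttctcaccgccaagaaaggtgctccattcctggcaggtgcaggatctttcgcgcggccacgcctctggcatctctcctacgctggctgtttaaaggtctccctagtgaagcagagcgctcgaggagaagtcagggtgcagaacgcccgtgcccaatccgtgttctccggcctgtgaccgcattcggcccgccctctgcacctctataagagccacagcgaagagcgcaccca

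No gene passed the adjusted test, and the results are therefore group means, single mice and counts of gene lists. Of 20411 genes tested with limma, 675 (3.31%) had an unadjusted p under 0.05, fewer than the 5% expected if no gene differed. Of these, 275 (1.35% of all genes) had a higher mean and 400 (1.96%) a lower mean in Conv + OM(HFD). After Benjamini-Hochberg adjustment over all genes, 0 genes (0%) passed, and the exact permutation test, not adjusted, gave 659 genes under 0.05. The split between higher and lower genes moved with the processing, as normexp gave 334 higher and 322 lower genes, the authors' processed values 330 and 329, and quantile normalization 306 and 358. Both groups were fully apart, with every Conv + OM(HFD) mouse on one side of every Conv + PBS mouse, for 50 genes (0.245%). Such separation also arises without a group difference, and its expected number was not computed. Counting every gene whatever its p, 9521 had a higher and 10890 a lower mean in Conv + OM(HFD).

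On all 16 arrays, 49.8% to 58.3% of probes were well above background, and the mean correlation of an array with the others was between 0.9815 and 0.989. Conv + PBS mouse 1 had the lowest of these correlations. In this mouse and in Conv + OM(HFD) mouse 25 the mean of 8 neutrophil markers stood at 2.38 and 2.43 above the control mean on the log2 scale, against −0.93 to 0.20 in the other 9 mice. The immune and acute phase lists are given with and without these mice. Of 9 hepatocyte markers, all were detected and Alb ranged from 10.03 to 10.36 over both groups. Their group difference had a median of 0.07 (log2), or −0.01 after quantile normalization. In whole liver, fewer cells of a type and less RNA per cell cannot be told apart.

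The retinoid gene Lrat held the smallest p-value among the genes ranked for naming. These were well above background on every array of both groups and matched a RefSeq symbol. Genes of the lipogenic network and gluconeogenesis were left out of the ranking. Over all 20411 genes, the smallest unadjusted limma p was 7.27e-05, in another gene. Lrat, which esterifies retinol for storage, stood at −1.96, −1.61, −1.43, −1.41 and −1.59 in Conv + OM(HFD) mice 25, 26, 28, 29 and 30, and at −1.29, −0.87 and −0.65 (lowest, median and highest) in the 6 Conv + PBS mice. All 5 recipients of obese microbiota lay below all controls. The log2 fold change was −0.64 (SE 0.14), with an unadjusted limma p of 0.000346 and an exact permutation p of 0.00649. It was −0.65 within slide 1 and −0.61 within slide 2, the glass slides on which the arrays were run.

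Cyp26a1, which oxidises retinoic acid and whose promoter with a retinoic acid element is shown above, stood at −1.88, −1.94, −2.14, −2.18 and −2.09 in the same order against −1.80, −1.04 and −0.27 in the controls. The controls were spread widely while the recipients of obese microbiota lay close together, all below the lowest control. The log2 fold change was −0.93 (SE 0.30, unadjusted limma p = 0.0068, exact permutation p = 0.0108), with −0.46 within slide 1 and −1.40 within slide 2. In Conv + LM, compared with the same controls, the mean of Cyp26a1 differed by −0.74 and that of Lrat by −0.26.

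Of 17 retinoid genes tested, 12 had a lower and 5 a higher mean in Conv + OM(HFD), 2 (11.8%) were under the unadjusted threshold against 3.31% of all genes, and the median log2 fold change was −0.17, against −0.01 over all genes. This median was −0.08 without Conv + OM(HFD) mouse 29 and −0.11 with normexp background correction. The 2 genes under the threshold were Lrat and Cyp26a1. The list, like the others, was written with an earlier report of these data known, so its share is not separate support. Members outside the threshold included Rdh16, a retinol dehydrogenase, at −0.33 and Rarb, a retinoic acid receptor and known retinoic acid target, at −0.39. Rbp4, the carrier of retinol in blood, was at 0.07 and Aldh1a1, which makes retinoic acid, at −0.04. The mean of the list stood between −0.32 and −0.08 in the 5 recipients and between −0.08 and 0.03 in the controls, with all 5 below the control median and an overlap at the edge.

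As Lrat marks stellate cells in liver, the other stellate markers are set beside it. Of 13, 7 had a lower and 6 a higher mean. Dcn, a matrix proteoglycan, was at −0.27 (limma p = 0.0329, exact p = 0.0455, lost without any of 5 single mice) and Reln at −0.35 (exact p = 0.108), while Col1a1 was at 0.63, Des at 0.53 and Pdgfrb at 0.02. Their part in the Lrat difference was not tested.

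**Figure D1:**
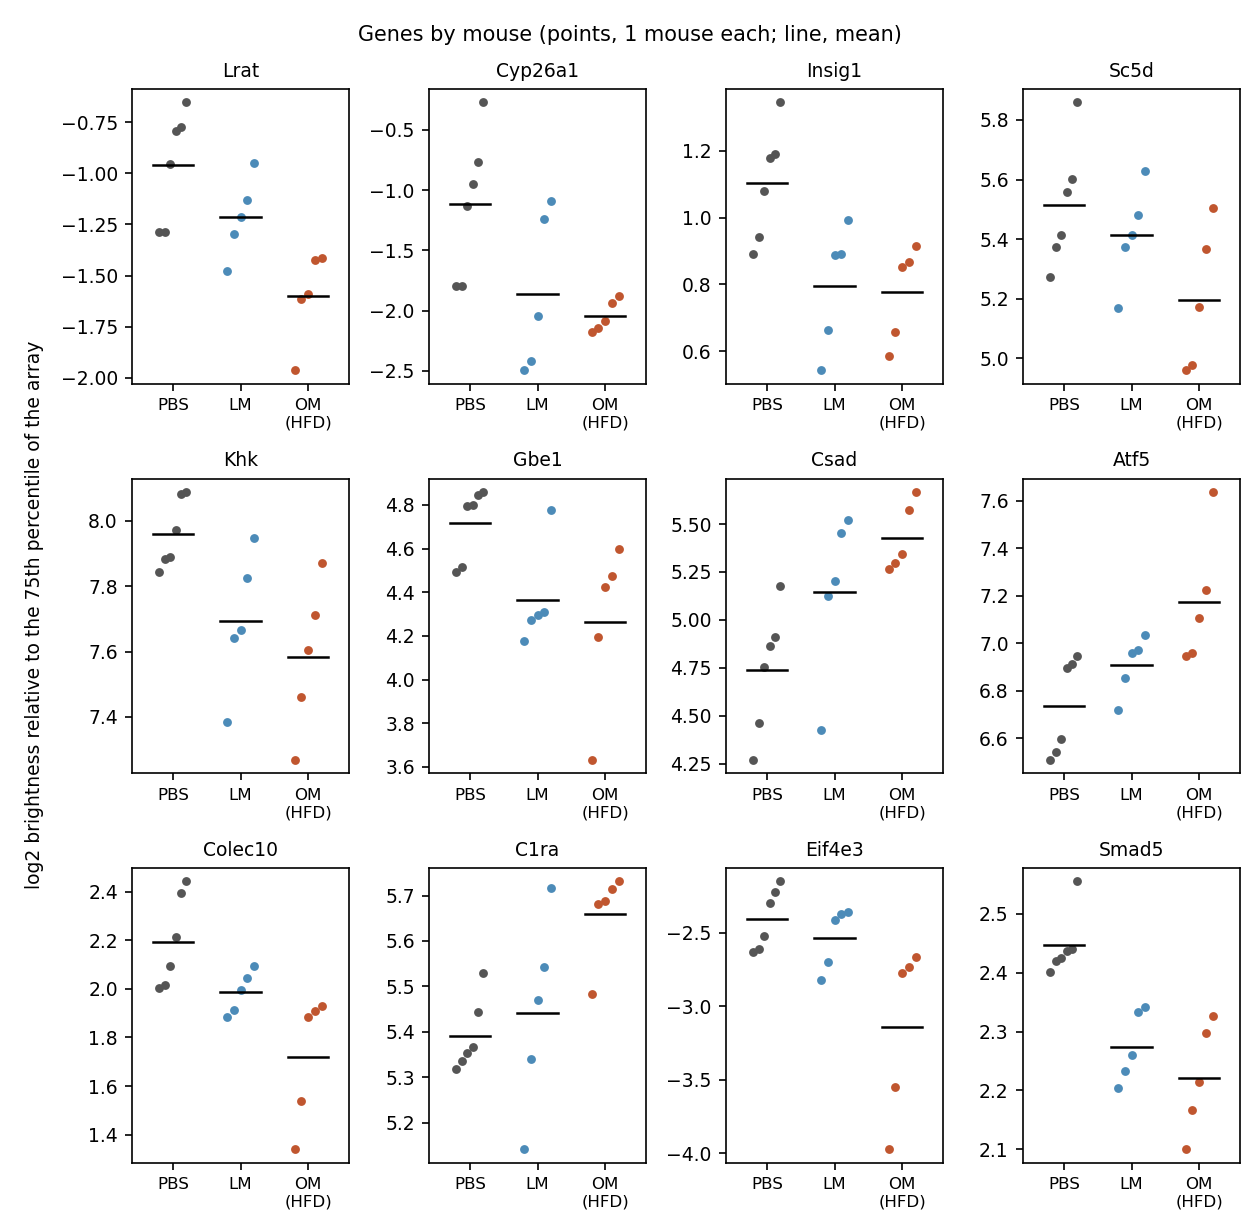
Log2 brightness relative to the 75th percentile of the array (y axis) for 12 genes in every mouse of the 3 groups (x axis: PBS, LM and OM(HFD)), with points for single mice and lines for group means. The 5 OM(HFD) points of Lrat, Cyp26a1, Colec10, Eif4e3 and Smad5 lie below every PBS point, those of Csad lie above, and those of the other 6 genes overlap with PBS.

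Genes of cholesterol synthesis and sterol control had lower means almost throughout. Of 24 tested, 22 were lower and 2 higher, the median log2 fold change was −0.21, and 3 (12.5%) were under the unadjusted threshold against 3.31% of all genes. The sign count of 22 lower was the same under each other normalization, background correction, filter and weighting tried, and it was 18 to 22 with any single mouse left out. Without Conv + OM(HFD) mouse 25, 10 genes were under the threshold and the median was −0.31, in a fit with 570 genes under it in all against 675 with all mice. Without Conv + OM(HFD) mouse 29, 2 genes were under it and the median was −0.15, and within slide 2 the median was −0.11 with 19 lower.

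Insig1, an endoplasmic reticulum protein that holds SREBP back from processing when sterols are high and is itself an SREBP target, stood at 0.66, 0.92, 0.59, 0.85 and 0.87 in Conv + OM(HFD) mice 25, 26, 28, 29 and 30 against 0.89, 1.13 and 1.35 in the controls. Mouse 26 was just above the lowest control and the other 4 recipients were below it. The log2 fold change was −0.33 (SE 0.11, unadjusted limma p = 0.00702, exact permutation p = 0.0108), and −0.31 in Conv + LM against the same controls.

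Sc5d, a late enzyme of the pathway, was also under the threshold, at −0.32 (SE 0.13, limma p = 0.0234, exact p = 0.0455). It lost the threshold without Conv + PBS mouse 2 or Conv + OM(HFD) mouse 29 or 30 (to −0.25), while Insig1 stayed under it with any single mouse left out. An E-box was found 98 bases before the start of Sc5d. Sqle, the squalene epoxidase, was at −0.51 (exact p = 0.197), and its values ran from 1.55 to 3.59 in recipients, highest in mouse 25, and from 2.24 to 2.98 in controls. Stard4, a cholesterol transporter, was at −0.42 (exact p = 0.0866).

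By mouse, the mean of the 24 genes relative to the control mean was 0.26, −0.04, −0.37, −0.44 and −0.47 in Conv + OM(HFD) mice 25, 26, 28, 29 and 30, and it ran from −0.26 to 0.18 in the controls. Mouse 25 was above every control, mouse 26 was within their range and the other 3 were below it. The 2 genes with higher means were Hsd17b7 at 0.08 and Srebf2, which encodes SREBP-2, at 0.05.

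**Figure D2:**
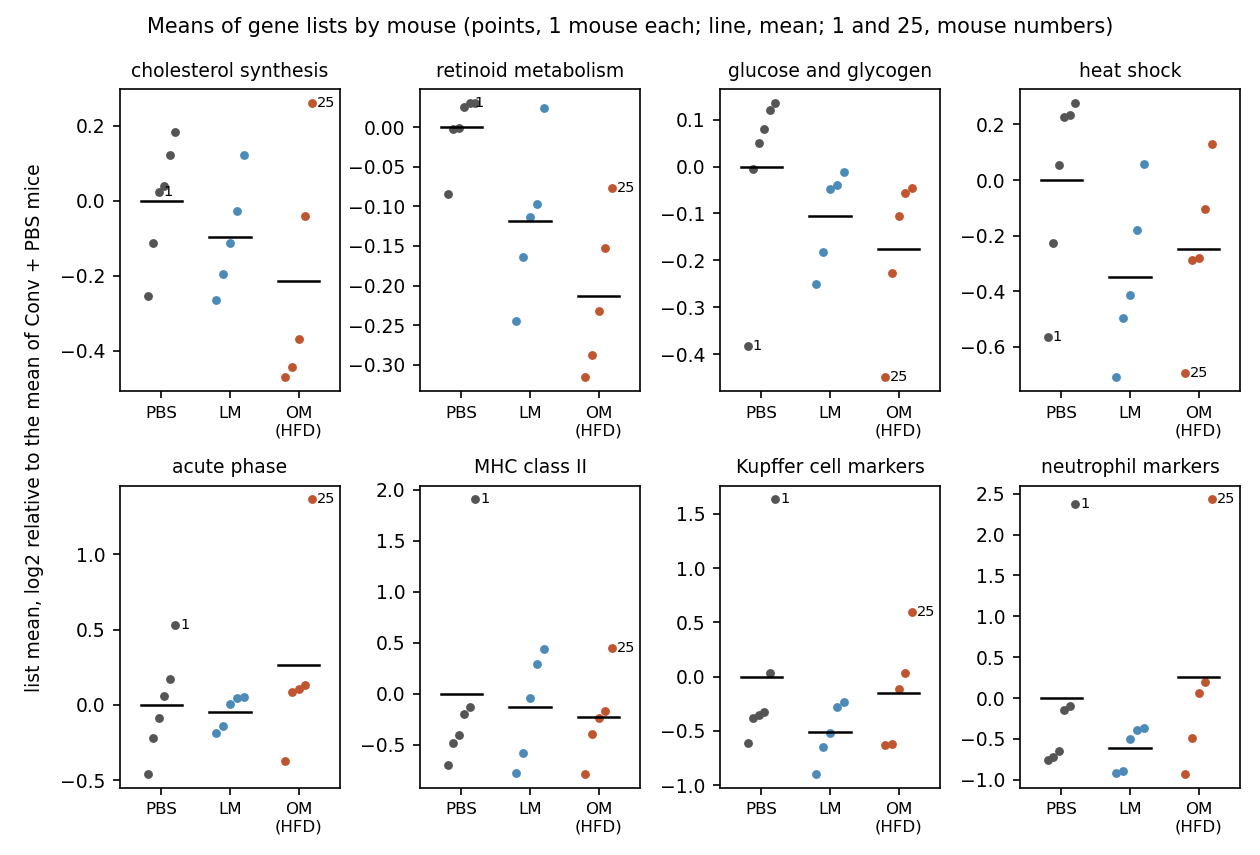
Mean of each gene list per mouse, as log2 relative to the mean of Conv + PBS mice (y axis), by group (x axis), with points for single mice, lines for group means and the numbers 1 and 25 beside 2 mice. No list separates the groups, and mice 1 and 25 stand above the other mice of their groups for neutrophil markers.

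Glucose uptake and glycogen genes also had lower means. Of 21 tested, 18 were lower and 3 higher, 4 (19.0%) were under the unadjusted threshold against 3.31% of all genes, and the median log2 fold change was −0.19. Khk, the ketohexokinase that commits fructose to metabolism, stood at 7.27, 7.71, 7.46, 7.60 and 7.87 in Conv + OM(HFD) mice 25, 26, 28, 29 and 30 against 7.84, 7.93 and 8.09 in the controls. Mouse 30 alone reached the control range. The log2 fold change was −0.38 (SE 0.12, unadjusted limma p = 0.00503, exact permutation p = 0.00433), and the difference was −0.43 within slide 1 and −0.30 within slide 2.

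Gbe1, the glycogen branching enzyme, stood at 3.63, 4.47, 4.43, 4.20 and 4.60 against 4.49, 4.80 and 4.86, again with only mouse 30 in the control range and with mouse 25 lowest. The difference between means was −0.45 (SE 0.16, unadjusted limma p = 0.0116, exact permutation p = 0.0152). Pygl, the liver glycogen phosphorylase that breaks glycogen down, was at −0.28 (limma p = 0.0116, exact p = 0.0195), so that enzymes of both directions had lower means. Slc2a2, the GLUT2 transporter, was at −0.41 (p = 0.0457, exact permutation p = 0.0519), and lost the threshold after quantile normalization and without any 1 of 6 mice (Conv + PBS 2, 3 or 4, Conv + OM(HFD) 25, 29 or 30), where its log2 fold change reached −0.31. Khk, Gbe1 and Pygl stayed under it with any single mouse left out. In Conv + LM, these genes differed from the same controls by −0.27, −0.35 and −0.12.

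Outside the threshold, Pklr, the liver pyruvate kinase, was at −0.47 (exact p = 0.117) and Mlxipl, which encodes the glucose-responsive factor ChREBP, at −0.20 (exact p = 0.11). The mean of the list stood at −0.45, −0.06, −0.11, −0.23 and −0.05 in the 5 recipients, all below the control median. In the controls it was −0.38 in mouse 1 and −0.01 to 0.14 in the others. Without Conv + PBS mouse 1, 7 genes were under the threshold and the median was −0.24, in a fit with 837 genes under it in all against 675 with all mice. Without Conv + OM(HFD) mouse 25, 3 genes were under it and the median was −0.13. The median was −0.07 within slide 2 and −0.11 with all probes of a gene averaged.

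**Figure D3:**
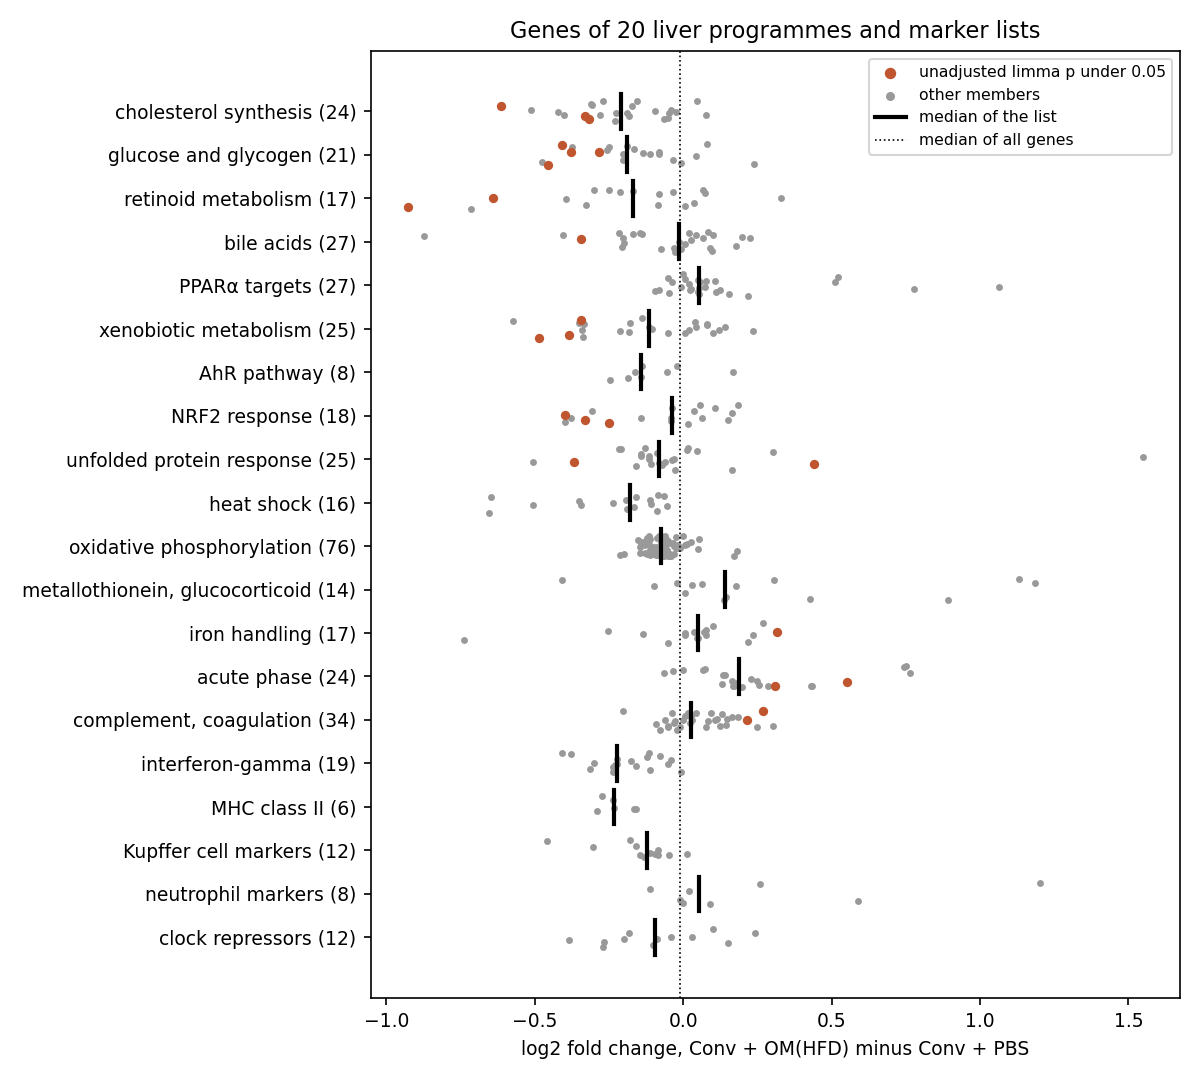
Log2 fold change of Conv + OM(HFD) against Conv + PBS (x axis) for each gene of 20 lists (y axis, number of genes tested in brackets), with coloured points for an unadjusted limma p under 0.05, bars for list medians and a dotted line for the median of all genes. The cholesterol, glucose, retinoid and heat shock medians lie between −0.21 and −0.17, against −0.01 over all genes.

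Among genes not tied to those lists, Csad, which makes the taurine precursor hypotaurine, was a bright gene with a higher mean. It stood at 5.67, 5.27, 5.34, 5.58 and 5.30 in Conv + OM(HFD) mice 25, 26, 28, 29 and 30 and at 4.27, 4.81 and 5.18 in the controls. All 5 recipients lay above all controls. The mean was 61.4% higher (log2 fold change 0.69, SE 0.19, unadjusted limma p = 0.00249, exact permutation p = 0.00433), with 0.90 within slide 1 and 0.48 within slide 2. In Conv + LM the same gene differed from the same controls by 0.41.

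Taurine is the amino acid to which mouse bile acids are joined, and the bile acid genes are therefore set beside Csad. Of 27 tested, 12 had a higher and 15 a lower mean, with a median of −0.01. Baat, the conjugating enzyme, was at −0.01. Cyp7a1, the rate-limiting enzyme of bile acid synthesis, was at 0.23 (SE 0.55), or −0.13 without Conv + OM(HFD) mouse 25, and varied from 1.22 to 4.03 among recipients and from 0.69 to 3.21 among controls. Cyp8b1, which sets the share of cholic acid, was at 0.20 (SE 0.32). Akr1d1, a steroid reductase of the same pathway, was the member under the threshold, at −0.34 (limma p = 0.0487, exact p = 0.0476), and lost it without any 1 of 7 mice (Conv + PBS 1, 2, 3 or 5, Conv + OM(HFD) 25, 28 or 29), down to −0.25.

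Atf5, a transcription factor of the integrated and mitochondrial stress responses, stood at 7.64, 6.96, 6.95, 7.11 and 7.23 against 6.51, 6.75 and 6.95. Mouse 25 was highest, and mouse 28 met the highest control. Between the groups the log2 difference was 0.44 (SE 0.13, unadjusted limma p = 0.00368, exact permutation p = 0.00649), with 0.72 within slide 1 and 0.11 within slide 2. Of the 25 genes of the unfolded protein and integrated stress responses, 18 had a lower and 7 a higher mean, with a median of −0.08. The counts were 14 lower and 11 higher without Conv + OM(HFD) mouse 25, with a median of −0.02, and 12 lower and 13 higher without Conv + PBS mouse 4. Manf, an endoplasmic reticulum stress protein, was at −0.37 (limma p = 0.0192, exact p = 0.0455) and Hspa5, the chaperone BiP, at −0.22 (exact p = 0.165). Without mouse 25, Manf was at −0.32 and above the threshold, and Hspa5 at −0.14. Asns, the asparagine synthetase, was at 1.55 (SE 0.92, exact p = 0.149), and its value was 4.05 in mouse 25 against −1.10 to 0.69 in the other recipients and −2.28 to 1.02 in controls.

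All 16 genes tested of the cytosolic heat shock response had lower means, with a median of −0.18. In Conv + LM against the same controls the median was −0.24. Of the 16 genes in Conv + OM(HFD), 0 were under the unadjusted threshold in limma, against 3.31% of all genes, or in the exact permutation test. Without Conv + PBS mouse 1 the median was −0.28 with 2 genes under the unadjusted threshold, and without Conv + OM(HFD) mouse 25 it was −0.12 with 0 under it. Without both mice 1 gene was under it. Hspa1b and Hspa1a, near-identical inducible chaperones whose probes may share signal, were at −0.66 and −0.65, and Hspb1, a small heat shock protein, at −0.51. Hsf1, which encodes the factor that drives the response, was at −0.06. The list mean was −0.69, −0.28, −0.29, 0.13 and −0.11 in the 5 recipients. The controls ran from −0.56 in mouse 1 to 0.28, so that the groups overlapped. The median was −0.25 within slide 1 and −0.05 within slide 2.

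Subunits of oxidative phosphorylation, the mitochondrial respiratory chain and ATP synthase, had lower means in 69 of 76 cases, but by small amounts. Their median was −0.07, their range −0.21 to 0.18, and 0 were under the unadjusted threshold in limma. In the exact permutation test 3 were under it, against 659 of 20411 genes in all. The median in Conv + LM against the same controls was also −0.07. Within slide 2, 46 were lower and 30 higher with a median of −0.01, and without Conv + OM(HFD) mouse 25, 58 were lower with a median of −0.04. Without Conv + PBS mouse 1, 72 were lower, with a median of −0.10 and 7 under the unadjusted threshold, in the fit with 837 genes under it in all. Cytosolic ribosomal proteins, a list of similar size, had 21 lower and 58 higher means with a median of 0.02, and 47 lower and 32 higher within slide 2. Targets of PPARα, the receptor that drives fatty acid oxidation in fasting, had 21 higher and 6 lower means with a median of 0.05, and without Conv + PBS mouse 1 the counts were 14 higher and 13 lower with a median of 0.001. Without Conv + OM(HFD) mouse 25 all 27 were higher with a median of 0.19, without both mice 24 were higher and 3 lower with a median of 0.14, and within slide 2 all 27 were higher. None of the 27 was under the unadjusted threshold without 1 or both of these mice, and no test was run within a slide. Cpt1a, which admits fatty acids to mitochondria, was at 0.08 (SE 0.10). Fgf21, a fasting hormone of liver, was at 0.78 (SE 0.46, exact p = 0.0931) and Cyp4a14, a fatty acid hydroxylase, at 1.06 (SE 0.94, exact p = 0.34). For Fgf21, 3 recipients lay above every control and the other 2 within the control range, while all 5 recipients lay within the control range for Cyp4a14.

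In drug metabolism, Abcb1a, an efflux transporter, was at −0.49 (limma p = 0.0122, exact p = 0.0346), Gstt1, a glutathione transferase, at −0.34 (limma p = 0.0211, exact p = 0.0498) and Cyp2c54, a member of a family of similar P450 genes whose probes may share signal, at −0.39 (limma p = 0.0279, exact p = 0.0195). In Conv + LM, Abcb1a differed from the same controls by −0.42. Without Conv + OM(HFD) mouse 25 both Gstt1 and Cyp2c54 were at −0.24 and above the threshold. Cyp2c54 was also above it without Conv + PBS mouse 3 or Conv + OM(HFD) mouse 28. Of 25 xenobiotic genes 15 had a lower and 10 a higher mean, with a median of −0.12, or −0.06 without mouse 25. The common markers of the CAR and PXR receptors were not under the threshold, with Cyp2b10 at −0.34 (SE 0.58), or −0.04 without mouse 25, and Cyp3a11 at −0.05 (SE 0.16). Cyp1a2, a target of the aryl hydrocarbon receptor, was at −0.16, or 0.02 without Conv + OM(HFD) mouse 25 and 0.05 without both this mouse and Conv + PBS mouse 1.

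Of 18 NRF2 antioxidant genes, 10 had a lower and 8 a higher mean, with a median of −0.04. Under the unadjusted threshold were 3 (16.7%), against 3.31% of all genes. Pgd, an NADPH-producing enzyme of the pentose phosphate pathway, was at −0.40 (limma p = 0.0159, exact p = 0.0195), Me1, another source of NADPH, at −0.33 (limma p = 0.0477, exact p = 0.0498) and Nfe2l2, which encodes NRF2 itself, at −0.25 (limma p = 0.0444, exact p = 0.0303). Pgd lost the threshold without Conv + OM(HFD) mouse 30 (−0.30), and Me1 and Nfe2l2 lost it without any of 7 and 6 single mice, mouse 25 among them (−0.19 and −0.18). Me1 also lost it with slide as a block (limma p = 0.0558, no exact test), and in Conv + LM Me1 differed from the same controls by −0.43. A different probe of Nfe2l2 gave 0.05. Of the iron genes, Slc40a1, the iron exporter ferroportin, was at 0.32 (SE 0.13, limma p = 0.0283, exact p = 0.0433), and Hamp, which encodes hepcidin, at 0.22 (SE 0.34). Slc40a1 lost the threshold without any of 5 single mice (Conv + PBS 2, 4 or 5, Conv + OM(HFD) 25 or 29), down to 0.25. The metallothionein Mt1, which binds zinc, was at 0.89 (SE 0.46, exact p = 0.154), highest in mouse 25 at 9.30 and mouse 30 at 8.58 against 5.40 to 7.75 in the controls, and at 0.57 without mouse 25.

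Secreted defence proteins of the liver included single genes in both directions. Colec10, a collectin that binds microbial sugars and is known from liver stellate cells, whose other markers are given beside Lrat, stood at 1.34, 1.93, 1.91, 1.88 and 1.54 in Conv + OM(HFD) mice 25, 26, 28, 29 and 30 against 2.003, 2.16 and 2.44 in the controls. All 5 recipients were below all controls, and the log2 fold change was −0.48 (SE 0.12, unadjusted limma p = 0.00118, exact permutation p = 0.00216, the smallest that 462 splits of 11 mice allow in a two-sided test). The difference was −0.72 within slide 1 and −0.17 within slide 2.

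C1ra, a protease of the first complement component, stood at 5.73, 5.71, 5.69, 5.48 and 5.68 against 5.32, 5.36 and 5.53. Only mouse 29 lay in the control range. Its log2 fold change was 0.27 (SE 0.09, unadjusted limma p = 0.0111, exact permutation p = 0.00649). Mbl1, a mannose-binding lectin, was at 0.21 (limma p = 0.0323, exact p = 0.0563), and C1ra but not Mbl1 stayed under the threshold with any single mouse left out. Of 34 complement and coagulation genes 22 had a higher and 12 a lower mean (18 and 16 without Conv + PBS mouse 1), and the median was 0.03.

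Acute phase genes had higher means in 22 of 24 cases, with a median of 0.19 and 2 under the unadjusted threshold, against 3.31% of all genes. Without Conv + OM(HFD) mouse 25, 12 were higher and 12 lower, the median was 0.02 and 0 were under the threshold. Without Conv + PBS mouse 1, 23 were higher and 1 lower, with a median of 0.27 and 3 under the threshold, and without both mice 19 were higher and 5 lower, with a median of 0.13 and 0 under it. The median was 0.51 within slide 1, which holds mouse 25, and −0.17 within slide 2, which holds Conv + PBS mouse 1. The list mean was 1.37 in mouse 25 and −0.37 to 0.13 in the other recipients, against 0.53 in Conv + PBS mouse 1 and −0.46 to 0.17 in the other controls. Saa1, serum amyloid A, stood at 9.05 in mouse 25 and at 3.83 to 5.34 in the other recipients, with 3.96 to 6.56 in controls, and its difference went from 0.74 to −0.13 without mouse 25. Lbp, which carries bacterial lipopolysaccharide, was at 0.55 (limma p = 0.0319, exact p = 0.0758), and at 0.34 (p = 0.112) without mouse 25. Fga, a fibrinogen chain, was at 0.31 (limma p = 0.0379, exact p = 0.0455), and at 0.20 (p = 0.13) without mouse 25. Lcn2, an iron-sequestering acute phase protein, reached 6.09 in mouse 25 and was at −0.38 to 1.503 in the other recipients and at −0.61 to 2.78 in controls, a difference of 0.75, or −0.37 without mouse 25.

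Interferon-gamma inducible genes had a lower mean in all 19 cases, and MHC class II genes, which present antigen, in all 6, with medians of −0.22 and −0.23. Without Conv + PBS mouse 1 the counts were 8 lower of 19 and 0 lower of 6, and without Conv + OM(HFD) mouse 25 they were 18 of 19 and 6 of 6. Kupffer cell markers, which mark the resident macrophages, were lower in 11 of 12 cases with a median of −0.12, in 1 of 12 with a median of 0.18 without Conv + PBS mouse 1, and in 11 of 12 with a median of −0.31 without Conv + OM(HFD) mouse 25. Leaving out both mice, a setting chosen after their neutrophil markers were seen, gave medians of −0.06, 0.01 and −0.03 for these lists. The cytokine genes Tnf and Il1b were at 0.41 (exact p = 0.134) and −0.47 (exact p = 0.548), and Il1b was at 0.07 without Conv + PBS mouse 1 and at −0.98 without Conv + OM(HFD) mouse 25. Tlr4, the lipopolysaccharide receptor, was at −0.16 (exact p = 0.212), or −0.10 without mouse 1. Gbp2, a guanylate-binding protein of a family with similar members, was at −0.24 (SE 0.31), or 0.02 without mouse 1 and −0.33 without mouse 25. Ifit1, of the type I interferon response, was at −0.29 (SE 0.37), or −0.56 without mouse 25. The 26 type I interferon genes had 14 higher and 12 lower means with all mice, 21 and 5 without Conv + PBS mouse 1, 4 and 22 without Conv + OM(HFD) mouse 25, and 7 and 19 without both. The 20 cytokine and chemokine genes had 12 higher and 8 lower means with all mice, 15 and 5 without Conv + PBS mouse 1, 5 and 15 without Conv + OM(HFD) mouse 25, and 10 of each without both. Bacterial sensing genes had 10 higher and 12 lower means, 14 and 8 without mouse 1, 9 and 13 without mouse 25, and 10 and 12 without both. The lymphocyte markers had 4 higher and 8 lower means, also without mouse 25, and 5 and 7 without mouse 1 or both.

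**Figure D4:**
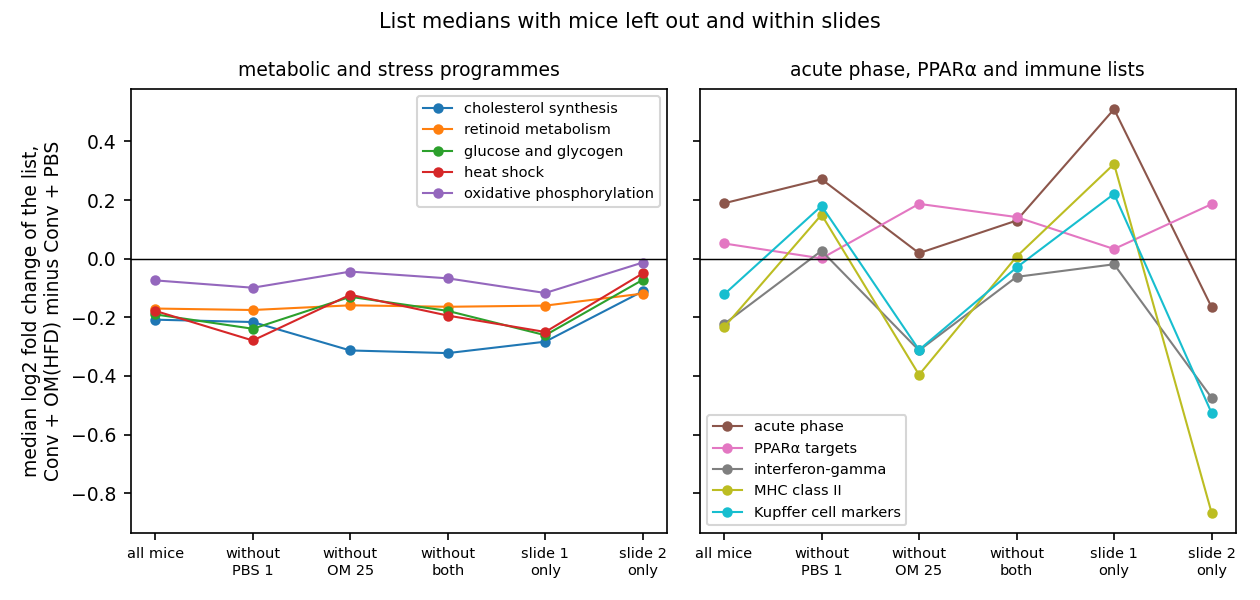
Median log2 fold change of each list, Conv + OM(HFD) minus Conv + PBS (y axis), with all mice, with mouse 1, mouse 25 or both left out, and within each slide (x axis). The 5 metabolic and stress lists stay below 0 throughout, while the acute phase, interferon-gamma, MHC class II and Kupffer cell medians cross 0.

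Leaving out both mice kept the sign of the metabolic medians, at −0.32 for cholesterol, −0.18 for glucose, −0.16 for retinoid and −0.19 for heat shock genes. With all mice, the medians in Conv + LM against the same controls were −0.09 for cholesterol, −0.09 for glucose and −0.08 for retinoid genes. In the endothelial list, 10 of 12 markers had a lower mean, and Clec4g, a lectin of sinusoidal endothelium, was at −0.49 (limma p = 0.0155, exact p = 0.013), or −0.32 and above the threshold without mouse 25. Cell cycle genes were split, with 12 higher and 10 lower (7 and 15 without Conv + OM(HFD) mouse 25, 8 and 14 without both mice). Cdk1, the mitotic kinase, was a dim gene at 0.60 (limma p = 0.00392, exact p = 0.0152), while Mki67, a marker of cycling cells, was at 0.23 (exact p = 0.465), or −0.002 without mouse 25. Cd3g, a T cell marker, was at −0.47 (limma p = 0.00891, exact p = 0.0173) and Klrb1c, an NK cell marker, at −0.54 (limma p = 0.0415, exact p = 0.0801), both dim. With slide as a block, where no exact test was run, Klrb1c had a limma p of 0.0518. Of 8 bile duct markers, 5 had a lower and 3 a higher mean with a median of −0.14, from Tspan8 at −0.94 to Epcam at 0.46. The median ran from −0.39 to 0.04 with single mice left out. Without Conv + OM(HFD) mouse 25 it was −0.04, with 4 lower and 4 higher. Tspan8 and Cftr (−0.77) were the 2 members under the unadjusted threshold, and each was well above background on 5 or fewer of the 11 arrays.

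Further programmes were counted against the same 3.31% of all genes under the unadjusted threshold. Insulin signalling and FOXO1 targets had 11 lower and 4 higher means with 0 genes under it, genes of the aryl hydrocarbon receptor pathway 7 lower and 1 higher with 0 under it, and pericentral zonation genes 12 lower and 3 higher with 0 under it. The pericentral genes had 7 lower and 8 higher means without both outlying mice. The urea cycle and amino acid genes had 15 higher and 8 lower means (11 and 12 without Conv + OM(HFD) mouse 25), and the growth hormone axis 3 higher and 9 lower (7 and 5 without that mouse), with Igf1, its main hepatic product, at 0.01 (SE 0.10). Of 25 nuclear receptors and cofactors, 13 had a higher and 12 a lower mean and 2 (8.0%) were under the threshold, with Thrb, the thyroid hormone receptor of liver, at −0.20 (limma p = 0.0398, exact p = 0.0238) and Nr2f1 at −0.24 (limma p = 0.0462, exact p = 0.0714), both above the threshold without several single mice and Nr2f1 also with slide as a block (limma p = 0.054). Metallothionein and glucocorticoid-induced genes had 11 higher and 3 lower means, and 7 of each without Conv + PBS mouse 1.

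The clock genes differed widely between mice of a group. Arntl, a core activator of the circadian clock, ran from −2.82 to 0.21 in recipients and from −2.84 to −0.33 in controls, and its output gene Dbp from 3.68 to 6.04 and from 4.27 to 6.18. The differences were 0.29 (SE 0.59) and −0.27 (SE 0.47), or 0.07 and −0.08 without Conv + PBS mouse 1 and 0.64 and −0.54 without Conv + OM(HFD) mouse 25. Within both groups Arntl broadly rose with mouse number, from −2.78 in mouse 1 to −0.33 in mouse 6 and from −2.82 in mouse 25 to 0.21 in mouse 30. Dbp fell in the same order, and the cause was not tested. Per2, a clock repressor, was at −0.27 (SE 0.13, unadjusted limma p = 0.0596, exact permutation p = 0.0411), and with slide as a block its limma p was 0.0201, with recipients at 2.08 to 2.33 and controls at 2.12 to 2.68.

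The remaining genes were named for the smallest p-values, whatever their role. With lower means, Eif4e3, which binds the mRNA cap, was at −0.73, Slc5a6, the sodium-dependent transporter of biotin and pantothenate, at −0.47, Ak4, a mitochondrial adenylate kinase, at −0.38 and Smad5, which transmits BMP signals, at −0.23. Eif4e3, Ak4, Smad5 and 2510009E07Rik were lower in every recipient than in every control. Mxd4, a MAX partner, was at −0.27, Ank, a pyrophosphate exporter, at −0.41, Adig at −0.66 and 2510009E07Rik at −0.57. With higher means, the small GTPases Arl6 and Arl15 were at 0.42 and 0.40, Tbl1xr1, a corepressor exchange factor, at 0.35, Zfp770 at 0.34, Brf2, a factor of RNA polymerase III, at 0.31, Adat2, a tRNA deaminase, at 0.29, Lrrc51 at 0.27 and Gm13298 at 0.50. Zfp770 and Lrrc51 were higher in every recipient than in every control, while Zfp770, Smad5 and Arl15 missed the threshold when all probes of the gene were averaged. Their unadjusted limma p-values lay between 0.00087 and 0.00513, and the adjusted values were above the threshold. E-boxes were found in the promoters of Mxd4 and Ak4, 219 and 214 bases before the start. In Conv + LM against the same controls, all genes of this paragraph differed in the same direction as in Conv + OM(HFD). The lower ones ran from −0.61 for Adig, −0.46 for 2510009E07Rik and −0.44 for Slc5a6 to −0.13 for Eif4e3. The higher ones ran from 0.50 for Gm13298, 0.36 for Arl15 and 0.35 for Tbl1xr1 to 0.07 for Adat2.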

How the data were processed

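Liver RNA of 16 mice was measured, 1 mouse per array, after labelling of 200 ng of RNA with Cy3. The deposited scanner files hold intensity values that the authors extracted with Agilent Feature Extraction 10.10.1.1 per the submitters' processing notes, which also name limma. The processed values deposited by the authors are log2 values of the same arrays and were used as an alternative. The genome build of the probes is not given in the sources used here, so no probe coordinates are printed.

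The processed signal was taken as log2 minus the 75th percentile of each array. Control spots and spots with outlier flags were left out, spots of a probe were averaged, and a probe was retained when 5 or more arrays, out of 16, showed it well above background. The probe with the highest mean stood for a gene name, leaving 20411 genes from 30671 probes, of which 58 lacked a value in a mouse. Of these names 14641 were current RefSeq symbols, 694 were older ones and 5076 were not matched.

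Groups came from the labels. Conv + OM(HFD) minus Conv + PBS was tested with limma 3.58.1 in R 4.3.3 (lmFit and eBayes, all 16 arrays, Benjamini-Hochberg adjustment, threshold 0.05), and single genes also with an exact two-sided permutation test over the 462 splits of 11 mice, whose smallest p is 0.00216. All p-values are unadjusted unless stated. They take single mice as the units, while each group had a pooled inoculum and cages are not known. Differences between inocula or cages are therefore not covered, and the number of arrays limits precision. The code was tested on simulated data. Tables and figures were made with the R package data.table (version 1.17.8), Python 3.11.15, pandas 2.3.3 and matplotlib 3.10.9.

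Genes named were, first, the 10 higher and 10 lower with the smallest p. They were ranked among genes well above background on all arrays of both groups and matched to a RefSeq symbol. The lipogenic network and gluconeogenesis genes were left out of this ranking. Also named were up to 4 members under the threshold in each of 50 gene lists, and a set of anchor genes whatever their values. Further list members were picked with their values in view. The members, lists and rules were chosen with earlier results of these data known. Some of the genes so chosen are counted in their lists but not reported singly here. Lists are described by counts and medians, without a test. Promoters were matched by symbol for 60 of 77 rule-named genes, from RefSeq (GRCm38.p6). The motifs searched on both strands of the 250 bases were CACGTG (E-box), TTATGTAA (D-box), TCACNCCAC (SRE), a pair of AGGTCA sites 1 base apart (PPRE) and a pair of AGNTCA sites 5 bases apart (retinoic acid element), which do not overlap in the promoters shown, and the last was added after values were seen. Together they were in 8.02% of all promoters and in those of 8 named genes.

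Alternatives were quantile normalization, normexp (offset 50), the processed table of the authors, other probe filters, the mean of all probes, slide as a block or alone, the fit of 11 mice alone, array weights, the methods' t-test and each mouse left out in turn. Leaving out Conv + PBS mouse 1 and Conv + OM(HFD) mouse 25 together was added after seeing the data.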

Additional observations from a re-analysis of the deposited data

Results flagged for a closer look

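In 21 of 254 groups checked, 8.27%, 1 mouse stood far from the rest of its group, and chance flags about 1 in 20 groups. Values are log2, for genes relative to the 75th percentile of the array and for list means relative to the Conv + PBS mean.

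Conv + PBS mouse 1 stood above its group for the neutrophil markers (2.38), MHC class II (1.91), Kupffer cell markers (1.63), interferon-gamma genes (1.15), cytokines (0.77), bacterial sensing genes (0.44) and Il1b (−0.27), and below it for the glucose list (−0.38). Conv + OM(HFD) mouse 25 stood above its group for cytokines (0.82) and Zfp770 (−0.60), and below it for Cyp1a2 (2.70) and the adipose marker list (−1.75).

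Conv + OM(HFD) mouse 30 stood apart for the glucocorticoid list (0.82), the insulin list (0.027) and Mbl1 (3.96). Single genes or lists stood apart in Conv + OM(HFD) mouse 29 for C1ra (5.48), in Conv + OM(HFD) mouse 28 for proteasome subunits (−0.11), in Conv + PBS mouse 2 for Fga (5.14), in Conv + PBS mouse 4 for Smad5 (2.56), in Conv + PBS mouse 5 for the retinoid list (−0.084) and in Conv + PBS mouse 6 for Gm13298 (−1.06).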

How the results depend on the processing

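No paired analysis was run, because the labels give no pairs and no mouse number occurs in more than 1 group. The number of genes at an unadjusted limma p under 0.05 was 675 and ran from 568 to 859 with single mice left out. Without Conv + PBS mouse 1 and Conv + OM(HFD) mouse 25 it was 693, of which 226 were higher and 467 lower. The adjusted count was 0 in each of these fits. The count of lower genes went from 400 to 617 without a filter, where 37074 genes were tested in place of 20411. It was 627 with array weights, and the share of higher genes went from 40.7% to 50.9% with normexp and 50.1% with the authors' values, and the cause was not tested. Among named genes under the threshold, Lbp and Fga changed sign within slide 2, to −0.056 and −0.039, and the cause was not tested. Of those above it, Saa1 went from 0.74 to −0.95, Lcn2 from 0.75 to −1.42 and Mt1 from 0.89 to −0.19, and others such as Il1b and Gbp2 differed in sign within slide 1. A second probe of Fga gave −0.01. Of 50 named genes under the unadjusted threshold, 31 stayed under it with any single mouse left out and 19 did not. Slide as a block ended the calls of Me1, Nr2f1 and Klrb1c and brought Per2 under the threshold. Over all named genes and settings, 151 values lost the unadjusted threshold and 15 gained it. Dim genes (Cdk1, Klrb1c, Tspan8, Cftr) were not well above background on every array, which limits them.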
